A study of Homo sapiens with 10 samples.

Results

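The long arm of human chromosome 19 carries, in or near band 19q13.12, a cluster of zinc finger genes. Its members were taken as every gene on chromosome 19 with a smallest start from 34 to 39 Mb (hg38) and a symbol that begins with ZNF or ZFP followed by a digit. This gave 43 of the 58884 genes in the count tables. Of these, 34 are protein-coding, 7 are long non-coding RNA genes named as antisense to or divergent from a neighbour, and 2 are pseudogenes. RNA was compared between HCT116, a human colorectal carcinoma line with wild-type DNMT1 (6 libraries), and DNMT1 KO, a derivative of it (4 libraries). DNMT1 is the methyltransferase that copies DNA methylation onto newly replicated DNA. By the study's own description DNMT1 KO cells are a hypomorph that makes a shortened DNMT1, and all 4 libraries come from the same derivative line, so that the genotype and other differences of that line cannot be told apart. Both lines were grown in the same medium, and no drug treatment is named in the labels. The libraries fall into 4 labelled batches. Batch 1 holds replicate 1 of each group and batch 2 holds replicates 2 and 3 of each group, whereas DNMT1 KO replicate 4 is alone in batch 3 and HCT116 replicates 7, 8 and 9 are batch 4. The study gives the replicates of each line as independent cultures.

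Most zinc finger genes of chromosome 19 lie in clusters that grew by tandem duplication, and most of them encode KRAB zinc finger proteins. Such a protein binds DNA through a row of zinc fingers and recruits, through its KRAB domain, the corepressor TRIM28, which brings the H3K9 methyltransferase SETDB1, HP1 proteins and histone deacetylases to the bound site. Many of these proteins bind transposable elements, and a few hold the methylation of imprinted genes. The genes themselves often carry H3K9 methylation over the exons that encode the fingers.

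Libraries held 35418732 to 85991812 counts in HCT116 and 26700853 to 55732013 counts in DNMT1 KO. Levels are given as CPM, the counts of a gene relative to a fixed total, on library sizes scaled by edgeR's TMM factors. The mean level of DNMT1 itself was 153 CPM in the 6 HCT116 libraries (SD 64.2) and 19.5 CPM in the 4 DNMT1 KO libraries (SD 3.68). Of 6 epithelial markers, EPCAM, CDH1, KRT8, KRT18 and CLDN4 were called lower in DNMT1 KO and KRT19 was not (log2 fold change -1.06, adjusted p = 0.0763), and the leukocyte marker PTPRC was at 0.0317 CPM or less in every library. The endothelial marker PECAM1 rose from 0.0989 to 1.23 CPM and the fibroblast marker COL3A1 from 0.0231 to 4.83 CPM, and COL1A1 was at 12.5 and 6.72 CPM (adjusted p = 0.183). The part of these changes in the values of the zinc finger genes was not tested.

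The coding members were either expressed or close to silent in HCT116. Per kilobase of exon, the 19 that passed the filter on low counts had means of 0.324 CPM or more, and the 15 that did not had means of 0.0347 CPM or less. Of the 20 members tested (19 coding genes and the antisense RNA ZNF566-AS1), 5 were called lower in DNMT1 KO, 0 were called higher and 15 were not called. A call needed a log2 fold change beyond 1 in size together with a p below 0.05 in edgeR's quasi-likelihood test, after adjustment over all 19279 genes tested. The background for a call lower was 6.49% of all genes tested and for a call higher 7.42%. The 5 lower members were ZNF599, ZNF30, ZNF567, ZNF850 and ZFP30. In bulk RNA, fewer cells that express a gene and less RNA per cell cannot be told apart. Tested members without a call are named kept below, which says that no call was made and not that their levels were equal. For the 0 called higher, 3 members had an unadjusted p under 0.05 with a positive change, and DESeq2 and edgeR's likelihood ratio test also called 0.

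**Figure D1:**
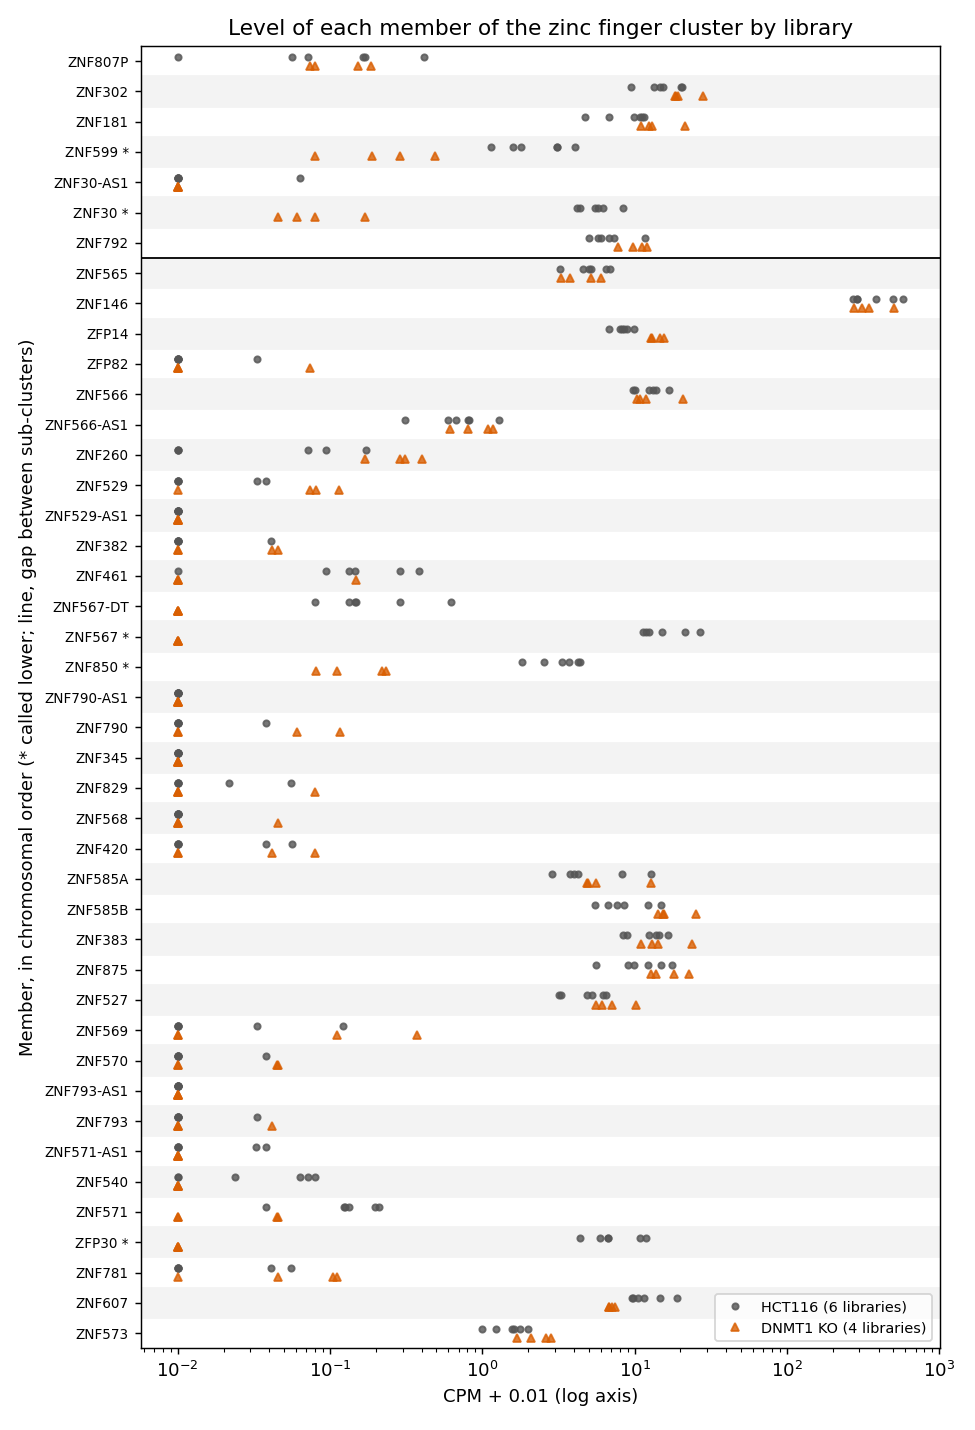
CPM plus 0.01 on a log axis for each of the 43 members in chromosomal order (circles, 6 HCT116 libraries; triangles, 4 DNMT1 KO libraries; points at 0.01 have no count). The 5 members marked with an asterisk lie above 1 CPM in every HCT116 library and at or below 0.476 CPM in every DNMT1 KO library, among the levels of the members that are low in both lines.

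Along the chromosome the members formed 2 sub-clusters, taken as separate where the gap between neighbours exceeded 250 kb. The first runs from 34542462 to 34964229 (422 kb, 7 members) and the second from 36182060 to 37817300 (1640 kb, 36 members), with 1220 kb between them. Inside these spans, 3 other protein-coding genes of the table start, and 0 of them passed the filter. The lower members did not form a block. In the first sub-cluster, ZNF302 and ZNF181 were kept, the next coding genes ZNF599 and ZNF30 were lower, and ZNF792, whose 3′ end lies downstream of ZNF30, was kept.

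In the second sub-cluster the order began with ZNF565, ZNF146 and ZFP14, all kept, then ZFP82, low in both lines, then ZNF566, kept. A run of 4 coding genes low in both lines followed (ZNF260, ZNF529, ZNF382 and ZNF461, 156 kb). ZNF567 and ZNF850, which overlap each other on opposite strands, were lower, and 5 coding genes low in both lines came after them (ZNF790, ZNF345, ZNF829, ZNF568 and ZNF420, 313 kb). Then 5 kept genes lay side by side over 286 kb (ZNF585A, ZNF585B, ZNF383, ZNF875 and ZNF527). A further run of 5 coding genes was low in both lines (ZNF569, ZNF570, ZNF793, ZNF540 and ZNF571, 203 kb), ZFP30 alone was lower, and ZNF607 and ZNF573 at the end were kept. Thus ZNF567, ZNF850 and ZFP30 each adjoin a run of coding genes that were low in HCT116 too, whereas ZNF599 and ZNF30 have kept coding genes on both sides.

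Promoters are shown for ZNF567 and ZFP30, the expressed members that had no count in DNMT1 KO, for ZNF345, which had no count in any library, and for ZNF146 and ZNF302, the kept members with the highest CPM. Each is the RefSeq window from 250 bases before to 50 bases after a start site (GRCh38.p14), written 5′ to 3′ on the strand of the gene, with every CpG, the dinucleotide that DNMT1 methylates, in capitals.
ZNF567, chr19:36687362-36687661, plus strand: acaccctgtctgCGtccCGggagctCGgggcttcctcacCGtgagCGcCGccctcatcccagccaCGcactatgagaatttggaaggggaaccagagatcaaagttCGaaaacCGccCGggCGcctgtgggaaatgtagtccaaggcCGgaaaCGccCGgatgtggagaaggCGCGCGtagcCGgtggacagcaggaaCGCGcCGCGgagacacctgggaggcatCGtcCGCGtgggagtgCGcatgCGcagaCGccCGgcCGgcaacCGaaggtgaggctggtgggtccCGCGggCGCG
ZFP30, chr19:37656212-37656511, minus strand: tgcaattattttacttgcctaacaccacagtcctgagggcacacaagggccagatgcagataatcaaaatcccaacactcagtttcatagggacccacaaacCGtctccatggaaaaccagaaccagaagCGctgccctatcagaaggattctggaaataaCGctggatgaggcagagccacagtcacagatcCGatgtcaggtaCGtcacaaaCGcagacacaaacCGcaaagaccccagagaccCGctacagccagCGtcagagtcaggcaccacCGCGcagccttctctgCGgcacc
ZFP30, other start, chr19:37655416-37655715, minus strand: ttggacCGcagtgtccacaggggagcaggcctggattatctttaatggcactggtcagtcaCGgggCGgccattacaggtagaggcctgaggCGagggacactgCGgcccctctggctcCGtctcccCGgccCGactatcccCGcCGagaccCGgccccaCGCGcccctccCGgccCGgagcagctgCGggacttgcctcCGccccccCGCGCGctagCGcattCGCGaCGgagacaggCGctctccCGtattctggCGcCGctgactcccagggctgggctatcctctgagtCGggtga
ZNF345, chr19:36850115-36850414, plus strand: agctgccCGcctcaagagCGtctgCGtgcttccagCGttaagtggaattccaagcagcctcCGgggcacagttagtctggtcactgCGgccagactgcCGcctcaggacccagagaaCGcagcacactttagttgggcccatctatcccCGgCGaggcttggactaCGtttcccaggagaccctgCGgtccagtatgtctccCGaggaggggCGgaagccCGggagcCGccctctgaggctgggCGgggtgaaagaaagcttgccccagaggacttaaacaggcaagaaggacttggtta
ZNF146, chr19:36214856-36215155, plus strand: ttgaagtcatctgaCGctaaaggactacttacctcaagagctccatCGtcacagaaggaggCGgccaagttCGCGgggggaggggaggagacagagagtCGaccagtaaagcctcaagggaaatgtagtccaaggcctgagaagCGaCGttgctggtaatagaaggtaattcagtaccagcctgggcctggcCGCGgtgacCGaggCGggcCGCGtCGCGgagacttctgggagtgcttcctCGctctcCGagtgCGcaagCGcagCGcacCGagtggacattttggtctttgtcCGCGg
ZNF302, chr19:34677428-34677727, plus strand: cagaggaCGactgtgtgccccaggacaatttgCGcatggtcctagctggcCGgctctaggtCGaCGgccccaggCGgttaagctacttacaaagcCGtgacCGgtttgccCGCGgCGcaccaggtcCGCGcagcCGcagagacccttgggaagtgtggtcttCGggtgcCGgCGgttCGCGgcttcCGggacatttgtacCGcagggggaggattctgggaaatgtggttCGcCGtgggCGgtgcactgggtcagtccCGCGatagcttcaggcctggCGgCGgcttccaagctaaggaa
ZNF567 has 35 CpG sites in the window shown, ZNF345 has 17, ZNF146 has 24 and ZNF302 has 28. RefSeq windows that are not shown hold 18 for ZNF567, and 14 and 9 for ZNF345. The ZFP30 windows hold 12 and 29. Their start sites lie 36076 and 36872 bases inside the 5′ end that the count table gives for this gene.

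The ranges of promoter CpG content overlapped between the classes. RefSeq windows were found for 38 of the 43 members, and the window nearest the 5′ end in the count table was used. For 33 of the 38 its start site lay within 1000 bases of that end. The median number of CpG sites was 22.0 for the 4 lower members with a window (12 to 35), 23.5 for 14 members not called (16 to 30) and 23.5 for 20 members below the filter (13 to 37). The 22.0 and the 12 rest on the choice of window for ZFP30, whose other window holds 29. ZNF599, ZNF850 and ZNF567 have 21, 23 and 35. All 35116 promoter windows had a median of 14 CpG sites, with quartiles of 4 and 28. The median of each class lay above 14 and within these quartiles. Median GC content was 60.0%, 62.0% and 63.5% in the same order, against 58.7% over all windows. ZNF30 has no window in the table.

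**Figure D2:**
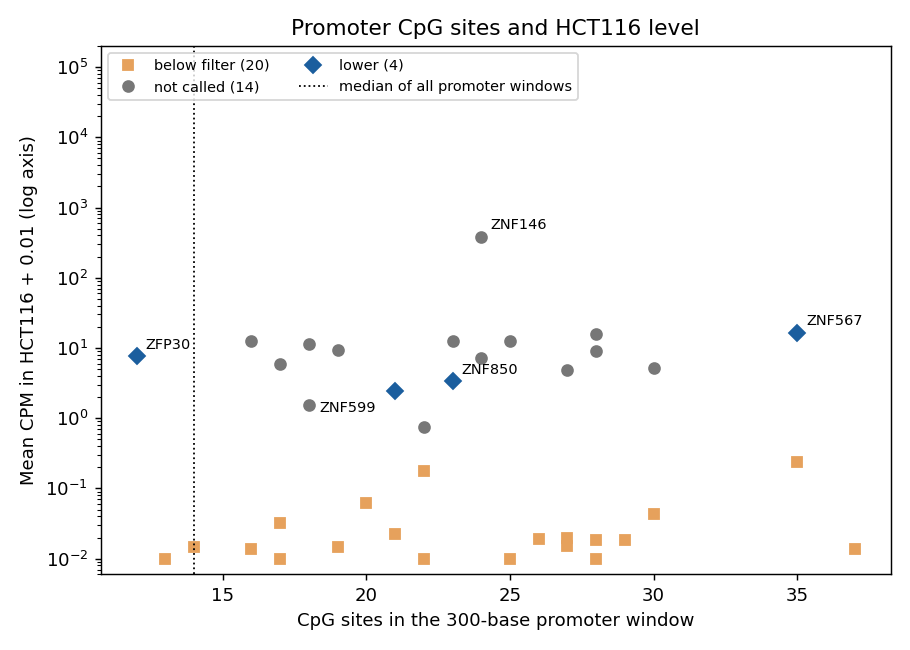
CpG sites in the 300-base promoter window (x axis) against mean HCT116 level, as CPM plus 0.01 on a log axis, for the 38 members with a window. The 3 classes overlap along the x axis, where members below the filter range from 13 to 37 sites, members not called from 16 to 30 and lower members from 12 to 35. The 12 is ZFP30, whose other window holds 29.

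Short motifs were searched on both strands of the same windows. GGGCGG, the GC box of SP1 and KLF factors, was in 15 of 38 members (39.5%) and in 45.0% of all windows, and CCGGAA, the core of ETS sites, was in 14 (36.8%) and in 17.2%. The palindromic NRF1 site was in 11 members (28.9%) and in 5.78% of all windows. These 11 comprised 1 lower member (ZNF567), 3 not called and 7 below the filter, and ZNF567 and its divergent partner ZNF567-DT share most of a window. The windows of ZNF529 and ZNF382, both among the 11, also overlap, and a window of ZNF565 that was not used holds the site too. Members had a median of 23 CpG sites against 14 over all windows, and shares were not compared at like CpG content. The palindrome known from ZBTB33 binding was in ZNF850 alone among members and in 0.424% of all windows. AAGATGGCG, from YY1 sites, was in 2 members and in 1.75% of windows, the E-box CACGTG in 2 and in 7.26%, and TGACGTCA, from CREB and ATF sites, in 0 and in 1.85%. A match describes letters in the window and says nothing of whether a factor is bound there.

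ZNF567 (ENSG00000189042, chromosome 19, 36687612 to 36727701, plus strand), a KRAB zinc finger gene, went from the second highest level per exon length among the members to no count. HCT116 replicates 1, 2, 3, 7, 8 and 9 were at 11.3, 15.2, 12.5, 11.9, 21.3 and 27.1 CPM, and each of the 4 DNMT1 KO libraries was at 0. The groups were fully apart, with the 2 highest libraries in HCT116 batch 4. The fitted log2 fold change was -12.76 (SE 0.73, adjusted p = 3.38e-07). Against a floor of 3 counts over the DNMT1 KO group, 6075 counts in HCT116 make the gene at least 1130-fold lower. In mean level per kilobase of exon, ZNF567 was at 3.51 CPM in HCT116, ZNF146 at 93.0 and ZNF302 at 3.09.

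ZFP30 (ENSG00000120784, chromosome 19, 37613749 to 37692337, minus strand), a further KRAB zinc finger gene, was the other expressed member with no count in DNMT1 KO. HCT116 replicates 1, 2, 3, 7, 8 and 9 were at 5.88, 6.65, 4.39, 6.67, 10.8 and 11.8 CPM, and all 4 DNMT1 KO libraries were at 0. The fitted log2 fold change was -11.66 (SE 0.78, adjusted p = 9.85e-07), and 2841 counts against the floor make it at least 528-fold lower. As for ZNF567, the 2 highest HCT116 libraries were replicates 8 and 9. Another gene of the table shares 5.9% of the exon bases of ZFP30. The pseudogene ZNF781, which lies within its span, had a few counts (4 in HCT116, 12 in DNMT1 KO). These are uncertain, since 94.8% of the 50-base words of ZNF781 transcripts are shared with other genes.

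ZNF30 (ENSG00000168661, chromosome 19, 34926903 to 34945170, plus strand), a KRAB zinc finger gene, kept 16 counts in DNMT1 KO against 1945 in HCT116. Its HCT116 libraries were at 4.21, 4.38, 8.40, 5.75, 5.53 and 6.17 CPM in the same replicate order. DNMT1 KO replicates 1 to 4 were at 0.0505, 0.0355, 0.159 and 0.0695 CPM. The groups were far apart, and DNMT1 KO replicate 3 held 10 of the 16 counts. The log2 fold change was -6.09 (SE 0.50, adjusted p = 7.83e-07), and the ratio of pooled CPM was 67.8 (95% counting interval 41.6 to 119). Without DNMT1 KO replicate 3 the log2 fold change was -6.77 and the pooled ratio 120 (55.1 to 328).

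ZNF850 (ENSG00000267041, chromosome 19, 36714383 to 36772825, minus strand) overlaps the 3′ part of ZNF567 on the other strand and shares 0.0% of its exon bases with another gene. HCT116 libraries were at 3.34, 2.53, 1.82, 4.40, 3.72 and 4.23 CPM, and DNMT1 KO libraries at 0.101, 0.0711, 0.222 and 0.209 CPM. Every DNMT1 KO library had counts, 28 in all against 1208 in HCT116, and none came near the lowest HCT116 library. The log2 fold change was -4.46 (SE 0.48, adjusted p = 1.16e-05), and the pooled ratio was 24.1 (16.6 to 36.4).

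ZNF599 (ENSG00000153896, chromosome 19, 34758073 to 34773229, minus strand) had the smallest of the 5 decreases. HCT116 libraries were at 4.08, 3.07, 3.10, 1.59, 1.78 and 1.14 CPM, and DNMT1 KO libraries at 0.278, 0.178, 0.476 and 0.0695 CPM. The groups did not overlap, but the 3 libraries of HCT116 batch 4 were the lowest of that line. The log2 fold change was -3.23 (SE 0.55, adjusted p = 0.00074), and the pooled ratio was 7.48 (5.65 to 10.1), or 11.5 (7.57 to 18.2) without DNMT1 KO replicate 3. Within batch 1 the log2 ratio of CPM was -3.88 and within batch 2 it was -3.24. Between HCT116 batch 4 and HCT116 batches 1 and 2, ZNF599 had the lowest adjusted p of all members, 0.0858.

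**Figure D3:**
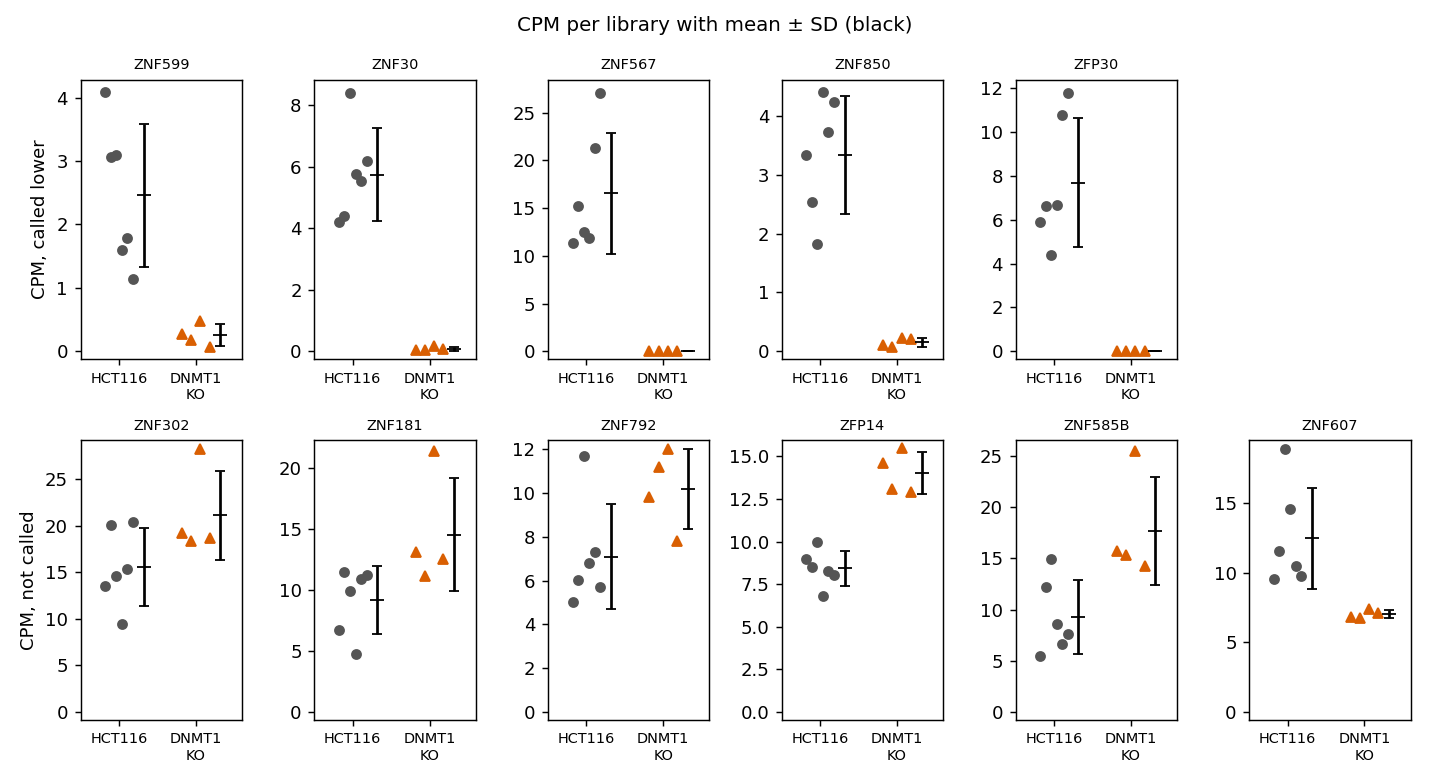
CPM per library for the 5 lower members (upper row) and for 6 members not called (lower row), with the mean and SD of each group in black and a separate linear axis for each gene. Libraries stand in replicate order from left to right. No DNMT1 KO library of a lower member reaches the lowest HCT116 library, and of the 6 kept members shown only ZFP14 and ZNF607 have groups that do not overlap.

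All 5 were lower by more than 8-fold in the fit, as were 400 of the 1251 genes called lower among all 19279 tested. Within batches, ZNF30 had log2 ratios of -6.38 in batch 1 and -6.04 in batch 2, and ZNF850 had -5.05 and -3.89. ZNF567 was at 11.3 CPM in HCT116 of batch 1 and 13.9 in batch 2 against 0 in DNMT1 KO of both, and ZFP30 at 5.88 and 5.52 against 0. Between the HCT116 batches (edgeR, the same test), 0 of 20 members were called, with an unadjusted p under 0.05 in 3 of them, where 8.03% of the 18656 genes tested were called. The differences of members in that comparison ran from -1.23 (ZNF585A) to 0.78 (ZFP30) on the log2 scale, batch 4 minus batches 1 and 2. Summed over the 5 genes, the level was 28.8 to 50.5 CPM in HCT116 libraries and 0.284 to 0.857 CPM in DNMT1 KO libraries.

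**Figure D4:**
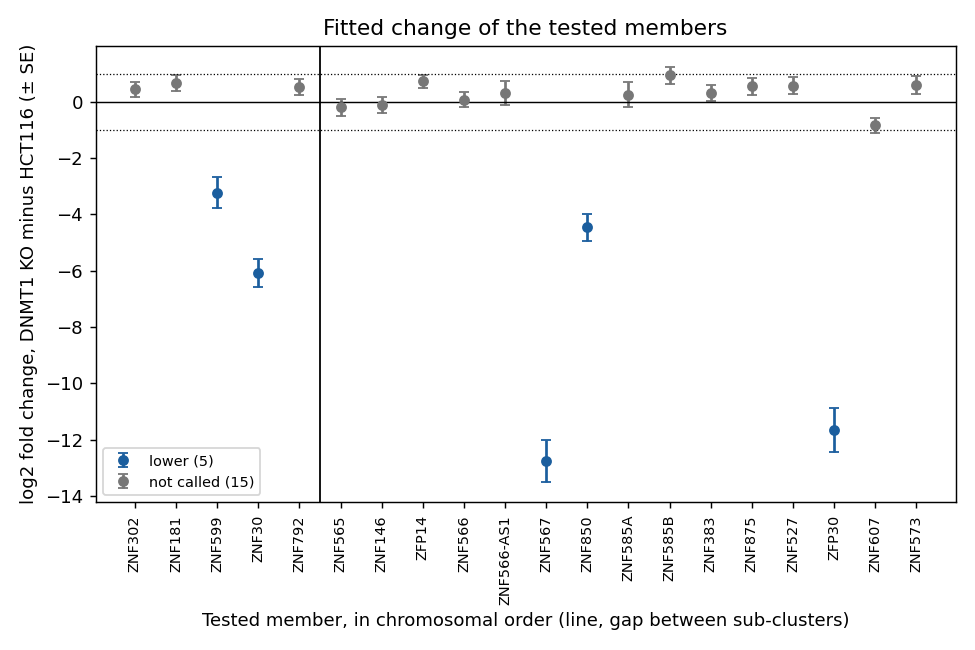
Fitted log2 fold change, DNMT1 KO minus HCT116, with its SE for the 20 tested members in chromosomal order (6 HCT116 and 4 DNMT1 KO libraries; dotted lines at -1 and 1). The 5 called members, at -3.23 to -12.76, alternate with 15 members that lie between -0.83 and 0.94. The values of ZNF567 and ZFP30 depend on the prior count, since DNMT1 KO had none.

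Of the 15 tested members that were not called, 12 had a positive fitted change and 3 a negative one (ZNF146, ZNF565 and ZNF607), with a median of 0.44 on the log2 scale against -0.07 over all genes tested. With library totals alone the split was 14 to 1 and the median 0.64, against 0.14 over all genes. DNMT1 KO replicate 3 had the highest CPM of its group in 13 of the 15, against 36.3% of all genes tested, and without it the split was 10 to 5. The part of that library in the direction was not tested further.

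ZNF146 (ENSG00000167635, chromosome 19, 36214602 to 36238774, plus strand), which encodes a protein made almost wholly of zinc fingers and lacking a KRAB domain, had by far the highest level of the members per kilobase of exon in both lines (93.0 CPM in HCT116 and 86.7 in DNMT1 KO). HCT116 replicates 1, 2, 3, 7, 8 and 9 were at 274, 582, 497, 387, 287 and 288 CPM, and DNMT1 KO replicates 1 to 4 at 278, 344, 504 and 311 CPM. The groups overlapped throughout (log2 fold change -0.10, SE 0.28, adjusted p = 0.852), and the sign turned positive with library totals alone (0.11). It shares 10.8% of its exon bases with another gene, and ZNF565, which overlaps it on the other strand, was at 5.24 ± 1.33 CPM in HCT116 and 4.55 ± 1.25 CPM in DNMT1 KO.

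In the first sub-cluster, ZNF302 (chromosome 19, 34677639 to 34686397, plus strand) was at 13.5, 20.1, 14.6, 9.46, 15.3 and 20.4 CPM in HCT116 and at 19.2, 18.3, 28.2 and 18.7 CPM in DNMT1 KO (log2 fold change 0.44, SE 0.26, adjusted p = 0.299). ZNF181, the next gene (34734155 to 34745378, plus strand), was at 6.74, 11.5, 9.89, 4.73, 10.9 and 11.2 CPM in HCT116 and at 13.1, 11.1, 21.4 and 12.5 CPM in DNMT1 KO (0.67, SE 0.30, adjusted p = 0.162). Both had overlapping groups and their highest library in DNMT1 KO replicate 3. Their next neighbour is ZNF599, whose level fell.

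ZFP14 (ENSG00000142065, chromosome 19, 36334453 to 36379201, minus strand) was the kept member whose DNMT1 KO libraries all lay above the HCT116 libraries. It was at 8.97, 8.48, 9.95, 6.82, 8.30 and 8.06 CPM in HCT116 and at 14.6, 13.1, 15.5 and 12.9 CPM in DNMT1 KO. No other kept member had this pattern, and the log2 fold change of 0.73 (SE 0.22, adjusted p = 0.031) stayed below the size needed for a call. Thus 1 of 20 members had groups that did not overlap upward, against 8.4% of all genes tested. Its adjusted p was under 0.05 in 9 of 21 alternatives, and rose to 0.06 to 0.0965 when any DNMT1 KO library was left out and to 0.138 within batches 1 and 2 with batch as a term.

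ZNF607 (ENSG00000198182, chromosome 19, 37696371 to 37719761, minus strand), the gene next to ZFP30, was the mirror case. It was at 9.56, 11.6, 18.9, 14.6, 10.5 and 9.77 CPM in HCT116 and at 6.82, 6.75, 7.40 and 7.12 CPM in DNMT1 KO. The groups did not overlap, the DNMT1 KO libraries were close to each other, and the log2 fold change was -0.83 (SE 0.26, adjusted p = 0.0437). With the 5 lower members this made 6 of 20 whose groups did not overlap downward, against 6.79% of all genes tested. By adjusted p under 0.05 without a size of change, 6 members were lower and 1, ZFP14, higher, where 7.61% and 8.45% of all genes tested were. The adjusted p of ZNF607 was under 0.05 in 5 of 21 alternatives, and rose to 0.0905 to 0.134 when any DNMT1 KO library was left out and to 0.0919 within batches 1 and 2 with batch as a term. Its value is uncertain, since 12.6% of its exon bases and 22.4% of the 50-base words of its transcripts are shared with other genes.

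Among the neighbours kept over 286 kb, ZNF585B (chromosome 19, 37181579 to 37218153, minus strand) came nearest to a call higher. It was at 5.48, 12.2, 14.9, 8.58, 6.68 and 7.64 CPM in HCT116 and at 15.7, 15.3, 25.5 and 14.2 CPM in DNMT1 KO, with HCT116 replicate 3 alone reaching into the DNMT1 KO range. The log2 fold change was 0.94 (SE 0.31, adjusted p = 0.0501). Without HCT116 replicate 2 (1.05, adjusted p = 0.0437), without HCT116 replicate 3 (1.16, adjusted p = 0.0114) or with library totals alone (1.14, adjusted p = 0.022) it was called higher. Its neighbour and namesake ZNF585A was at 5.97 ± 3.82 CPM in HCT116 and 7.07 ± 3.91 CPM in DNMT1 KO (0.25, SE 0.44, adjusted p = 0.769). These values are uncertain, as 15.5% of the 50-base words of ZNF585B transcripts are also in ZNF585A. The study removed reads of low mapping quality, so reads that match both genes could be lost from the counts.

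ZNF383, which starts 227 bases from ZNF585B on the other strand, was at 8.88, 16.7, 13.9, 8.44, 12.4 and 14.4 CPM in HCT116 and at 13.0, 11.1, 23.8 and 14.3 CPM in DNMT1 KO (0.32, SE 0.28, adjusted p = 0.514). ZNF875, known earlier as HKR1, was at 5.57, 14.9, 17.5, 9.94, 9.0 and 12.2 CPM in HCT116 and at 13.9, 18.2, 22.7 and 12.9 CPM in DNMT1 KO (0.55, SE 0.31, adjusted p = 0.273). ZNF566 was at 12.5, 16.9, 13.9, 9.83, 9.99 and 13.3 CPM in HCT116 and at 11.8, 10.3, 20.8 and 10.9 CPM in DNMT1 KO (0.08, SE 0.27, adjusted p = 0.876). In all 3 genes the lines overlapped and DNMT1 KO replicate 3 was the highest of its group. The remaining members not called, ZNF792, ZNF527, ZNF573, ZNF565 and ZNF566-AS1, had fitted changes of -0.20 to 0.60 with adjusted p from 0.241 to 0.717 and overlapping groups.

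The 23 members below the filter reached 0.615 CPM at most in any library, and 17 of them had means under 0.1 CPM in both lines. They comprise 15 coding genes, 6 long non-coding RNA genes and both pseudogenes. ZNF529-AS1, ZNF790-AS1, ZNF345 and ZNF793-AS1 had no count in any library, where 3 counts over the group would be 0.00892 CPM in HCT116 and 0.016 CPM in DNMT1 KO. Lower levels could not be detected at this depth. The set includes ZNF382, known as a gene silenced by promoter methylation in carcinomas, which had 2 counts in HCT116 and 4 in DNMT1 KO. It also includes ZNF568, whose mouse counterpart represses a placental Igf2 transcript, with 0 and 2 counts, and ZNF420, a KRAB repressor of p53 responses, with 6 and 4. Of the coding genes, 9 had fewer than 10 counts in each group. The summed level of all 23 was 0.371 to 1.44 CPM in HCT116 libraries and 0.732 to 0.905 CPM in DNMT1 KO libraries, and the ranges overlapped.

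Pooled counts of a few of these low members, named after their values were seen, differed between the lines over all libraries, beyond counting error if each count is independent. ZNF567-DT, the divergent RNA gene that starts 163 bases from ZNF567 on the other strand, had 71 counts in HCT116, with counts in all 6 libraries, and 0 in DNMT1 KO, at least 13.2-fold lower. In the fit without a filter it was called lower (log2 fold change -6.57, adjusted p = 0.000841), making 6 of 39 members, where 4.39% of 35231 genes were called lower. ZNF461 went from 58 to 4 counts, all 4 in DNMT1 KO replicate 4 (pooled CPM ratio 8.09, counting interval 2.99 to 30.7, at least 9.13 without that library and 5.37 without DNMT1 KO replicate 3). ZNF571 went from 41 to 3 counts (7.62, 2.43 to 38.5, with 16 without DNMT1 KO replicate 2 and 5.06 without DNMT1 KO replicate 3). ZNF540 had 11 counts in HCT116 and 0 in DNMT1 KO, at least 2.04-fold lower. These 11 counts are uncertain, since its 3′ end overlaps that of ZFP30 on the other strand and counting was unstranded. ZNF540 shares 8.6% of its exon bases with other genes. In the other direction, ZNF260 had 24 and 52 counts (DNMT1 KO over HCT116 3.89, 2.35 to 6.59), ZNF529 had 4 and 11 (4.93, 1.46 to 21.2) and ZNF781 had 4 and 12 (5.38, 1.63 to 22.9). The counts of ZNF781 are uncertain, since 94.8% of the 50-base words of its transcripts are shared with other genes. Single libraries carried the other upward ratios. ZNF569 had 10 and 27 counts (4.84, 2.27 to 11.2), of which DNMT1 KO replicate 3 held 23, and without it the ratio was 1.08 (0.247 to 3.74). ZNF790 had 2 and 8 counts (7.17, 1.43 to 69.3), of which DNMT1 KO replicate 2 held 6, and the ratio was 2.56 (0.186 to 35.3) without it and 10.8 without DNMT1 KO replicate 3. Without DNMT1 KO replicate 3 the interval of ZNF781 reached below 1 (4.05, 0.96 to 19.5). ZNF567-DT apart, none of these was called in the fit without a filter, in which ZNF260 had an adjusted p of 0.0829. These intervals treat the counts as independent and ignore the spread between libraries. Low counts were mostly even outside DNMT1 KO replicate 4, and every count of ZNF781 and ZNF790 was even. If counts come in mate pairs, the intervals are too narrow, and those of ZNF781 and ZNF790 may not exclude equal levels.

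The classes of genes that start head to head are given without a share for other neighbours to set beside them. The 5′ ends of 8 pairs of members lay within 1000 bases of each other. ZNF585B and ZNF383 (227 bases) and ZNF566 and ZNF566-AS1 (253 bases) were both not called. ZNF529 and ZNF382 (459 bases), ZNF790 and ZNF345 (426 bases), ZNF829 and ZNF568 (38 bases) and ZNF793-AS1 and ZNF793 (148 bases) were both below the filter, as were 23 of all 43 members. In the other 2 pairs a lower coding gene, ZNF567 or ZNF30, faced an RNA gene below the filter, ZNF567-DT or ZNF30-AS1 (91 bases). ZNF567-DT, like ZNF567, had no count in DNMT1 KO and was called lower in the fit without a filter. ZNF30-AS1 had 2 counts in HCT116 and 0 in DNMT1 KO. Only the outermost 5′ end of each gene was used, so pairs at inner RefSeq start sites are not among the 8. Such sites are 36666934 of ZNF567 beside the 5′ end of ZNF461 (36666853) and 37594876 of ZNF540 beside that of ZNF571 (37594790). A further site is 36215084 of ZNF565, beside the RefSeq start site of ZNF146 (36215106).

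The share of lower members was close to that of the other zinc finger genes of the chromosome. Of the 20 members tested, 25% were called lower and none higher. Of 166 tested zinc finger genes elsewhere on chromosome 19 (261 in the tables), 39 were called lower (23.5%) and 10 higher (6.02%). Of these 39, 33 were lower by more than 8-fold, as were 400 of the 1251 called lower among all genes tested. Of 230 tested coding zinc finger genes on other chromosomes, 12 were called lower (5.22%) and 13 higher (5.65%), near the background. Among 65 tested coding genes of the window that are no zinc finger genes by symbol, 10 were called lower (15.4%) and 3 higher (4.62%). CD22, RINL and KCNK6, which all lie outside both sub-clusters and were named after their values were seen, had the largest of these decreases, at -4.28, -3.64 and -2.01 on the log2 scale. The difference between sets was not tested.

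**Figure D5:**
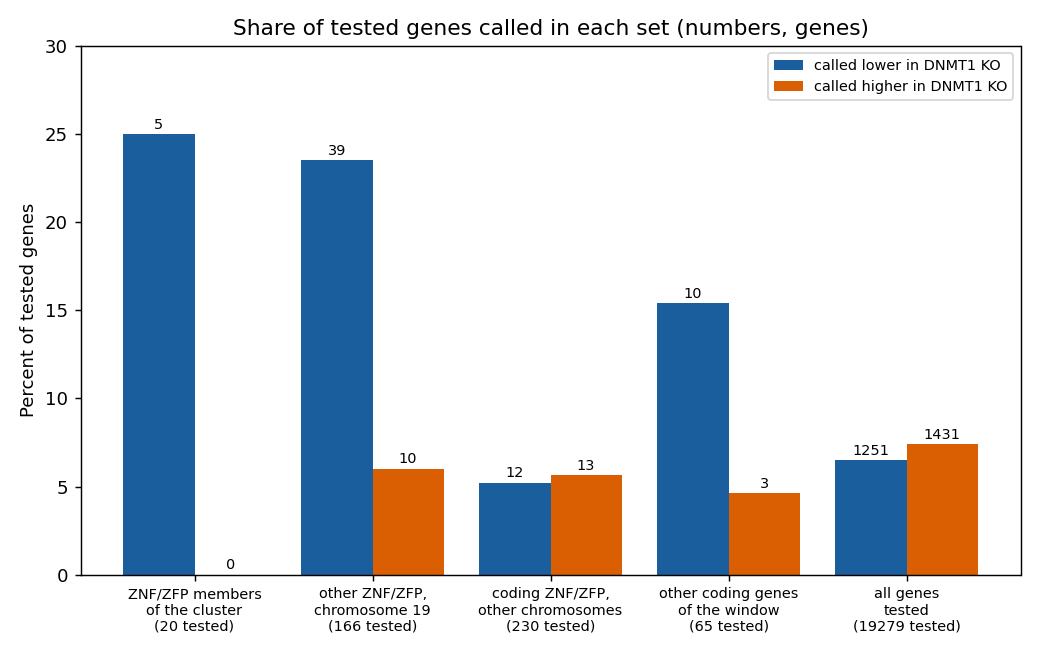
Percent of tested genes called lower (blue) and higher (orange) in DNMT1 KO for the members, 3 comparison sets and all genes tested, with the number of genes above each bar. The members (25%) and the other zinc finger genes of chromosome 19 (23.5%) have similar shares called lower, and zinc finger genes of other chromosomes (5.22%) lie near all genes tested (6.49%).

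Genes of the machinery through which KRAB zinc finger proteins act were measured in a list of 25, of which 24 were tested. Of these, 2 were called lower, 2 higher and 20 not, where 6.49% of all genes tested were called lower and 7.42% higher. The median log2 fold change was -0.10 against -0.07 over all genes tested. The lower ones were DNMT1, the gene disrupted in this line (-2.97), and the histone deacetylase gene HDAC1 (-1.31, SE 0.24, adjusted p = 0.00133). The higher ones were the HP1 gene CBX5 (1.09, SE 0.24, adjusted p = 0.00483) and TRIM24, a relative of TRIM28 (1.44, SE 0.25, adjusted p = 0.000737). TRIM28, the corepressor, was at 952 ± 441 CPM in HCT116 and 924 ± 264 CPM in DNMT1 KO (-0.04, SE 0.34, adjusted p = 0.95), and SETDB1 at 39.4 ± 7.05 and 43.0 ± 9.51 CPM (0.12, SE 0.22, adjusted p = 0.768). ATF7IP, the partner of SETDB1, was at 85.9 ± 17.6 and 153 ± 42.1 CPM (0.83, SE 0.23, adjusted p = 0.0244), and ZNF445, a KRAB zinc finger gene of imprint maintenance, at 65.6 ± 18.5 and 119 ± 29.2 CPM (0.85, SE 0.25, adjusted p = 0.0317). Both stayed under the size of change needed for a call. ZFP57, the other such gene, had no count in any library.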

How the data were processed

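Polyadenylated RNA of HCT116 and DNMT1 KO cells was sequenced by the authors as stranded paired-end libraries. Reads were trimmed with Trim Galore 0.4.1, aligned to hg38 by bowtie2, an aligner that cannot place a read across a splice junction, and summarised over exons with featureCounts. The authors deposited 1 table of raw, unnormalised counts for each library. No strand option is among the counting settings that the study gives, which leaves featureCounts at unstranded counting. Strand therefore cannot separate the reads of overlapping and antisense genes. No option to count a read for several genes is given either, so reads on exon bases that genes share may be lost from the counts. A further 3 tables, of HCT116 replicates 4 to 6, belong to no listed sample and were not used here. Of the 58884 genes, 58472 were matched to GENCODE release 44 for symbols and biotypes, and 31 of 43 members have the same start and end there. Coordinates are those of the count tables.

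Counts were fitted in R 4.3.3 with edgeR 4.0.16 (TMM, filterByExpr with default parameters, glmQLFit and glmQLFTest, two-sided) with group as the sole term, over all 10 libraries and the whole table, and p-values were adjusted by Benjamini-Hochberg. The SE of a log2 fold change is its size divided by the square root of the F statistic. Alternatives used DESeq2 1.42.0, other size factors and filters, the likelihood ratio test, batches 1 and 2 with and without a batch term, batch 2 alone, halved counts, a replicate block and each library left out. Pooled count ratios without each DNMT1 KO library were added after seeing the data. Fits were tested on simulated data. Among low counts (1 to 10), 64.4 to 70.0% were even in 9 libraries and 39.9% in DNMT1 KO replicate 4, so counts of the 9 may come in mate pairs. Intervals (95%, exact binomial) and floors of 3 counts cover counting error only and are too narrow if so.

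Libraries were not paired by replicate number in the main fit. Correlations of same-numbered deviations were 0.55, -0.27 and 0.37. Correlations between libraries of unlike number were not computed, so these values cannot show whether the numbers pair the libraries. Members and lists were chosen with earlier results of these data known. Values of every library are given for called members without overlap, for the 8 members not called with the highest mean CPM, and, chosen after values were seen, for ZNF607. Promoters were to be at most 4 of members with no count in DNMT1 KO and at most 4 of kept members with the highest CPM. Promoter windows are from RefSeq (GRCh38.p14, 60 windows for 38 members). Proteins were not analysed here.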

Additional observations from a re-analysis of the deposited data

Results flagged for a closer look

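In 5 of 38 groups of libraries (the 19 tested coding members and ZNF566-AS1 without groups at 0 throughout), the highest library lay apart from the others of its line by Dixon's criterion at 95%, where chance gives about 1.9. DNMT1 KO replicate 3 was that library for ZNF302 (28.2 CPM, others 18.3 to 19.2), ZNF585B (25.5 CPM, others 14.2 to 15.7), ZNF566 (20.8 CPM, others 10.3 to 11.8) and ZNF585A (12.9 CPM, others 4.85 to 5.54). HCT116 replicate 3 was that library for ZNF792 (11.7 CPM, others 5.01 to 7.33). All 5 genes belong to the members not called, and both libraries are of batch 2. The cause was not tested.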

How the results depend on the processing

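The calls of ZNF599, ZNF30, ZNF567, ZNF850 and ZFP30 held in all 20 alternatives in which they could be fitted, and their count stayed at 5 when any library was left out. Requiring at least 10 counts in every library gave 0 lower members, because these genes cannot pass that filter. The count of higher members was 1 instead of 0 with library totals alone (ZNF585B) and with an adjusted p under 0.05 alone (ZFP14), and 0 to 1 over the fits that leave out a library each (ZNF585B, without HCT116 replicate 2 or 3). No filter gave 6 lower members. The replicate block, over replicates 1 to 3 of each group, gave 5 lower and 0 higher and changed no call.

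Signs turned for 4 members with changes near 0, none of them called. ZNF146 was at 0.11 with library totals alone and at 0.0 to 0.08 without HCT116 replicate 2, HCT116 replicate 3 or DNMT1 KO replicate 1 (-0.29 to 0.08 over all libraries left out). ZNF566 was at -0.01 in batches 1 and 2 with and without a batch term, at -0.07 with the replicate block and at -0.19 without DNMT1 KO replicate 3 (-0.19 to 0.20 over all libraries left out). ZNF585A was at -0.04 and -0.10 in the same batch fits, at -0.18 in batch 2 alone, at -0.09 with the block and at -0.21 without DNMT1 KO replicate 3 (-0.21 to 0.65). ZNF565 was at 0.01 with library totals alone and at 0.21 in both batch fits, in batch 2 alone and with the block. The cause was not tested. Depth limits the 23 members below the filter, of which 4 had no count at all.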
